A study of Homo sapiens with 14 samples.

Results

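Cells make cholesterol and fatty acids from acetyl-CoA, and 36 human genes of this supply were chosen by name: the enzymes of both routes, the regulators that set their transcription, sterol carriers, and genes switched on by sterol excess. The choice was made with earlier results of these data known. Of the 36 genes listed, 35 have a line in each of the count tables used here, which hold 16405 and 12325 genes, and 35 of 35 passed the filter on low counts in both. ABCA1 expression was not analysed here, and only its promoter window was searched. The genes fall into 6 roles: 7 of the mevalonate branch, 11 from squalene to cholesterol, 8 of fatty acid synthesis and desaturation, 5 regulators of the sterol response element binding proteins (SREBPs), 2 sterol transport genes, and 3 targets of the liver X receptors (LXRs), of which 2 were measured.

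All libraries were bulk RNA-seq of Kasumi-1, an established acute myeloid leukaemia line with the RUNX1-RUNX1T1 fusion, grown in medium with fetal bovine serum. In the knockdown experiment, cells received lentivirus with a control hairpin (shCtrl, 3 libraries) or a hairpin against the RNA-binding protein RBPMS (shRBPMS, 3 libraries) for 48 h, followed by 48 h of puromycin selection. In the compound experiment, cells were treated with RB98#, a compound known here by its code name, or with DMSO, with 2 libraries each. The dose and time of RB98#, the number of hairpins and the hairpin sequences are not given in the sources used here. The labels do not say whether the libraries of a group came from separate cultures, so p-values measure the spread between these libraries, which may be technical. Each experiment was compared with its own controls.

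Library totals were 24027255 to 34375418 counts in the knockdown experiment and 13854281 to 15347684 in the compound experiment. The 8 myeloblast markers listed were in both tables, with summed levels of 14453 to 19547 counts per 1e+06 counts of a library (CPM) over all 10 libraries. Single markers moved within that sum. By edgeR with group alone CD33 (log2 1.71, adjusted p = 0.0246) and SPI1 (1.498, adjusted p = 0.0233) rose in shRBPMS, where 1.97% of all genes passed. Both calls were lost without shCtrl replicate 3, shRBPMS replicate 2 or shRBPMS replicate 3, where 0 genes passed. With RB98# 5 of the 8 rose, SPI1 (log2 0.26) among them, and 3 fell, CD33 (-0.84) among them. Of all genes 37.8% passed with RB98# (20.5% higher and 17.3% lower). The part of these markers in the results was not tested. Of 6 macrophage markers 1 was in the knockdown table and 2 in the compound table, at summed levels of 0.251 to 15.1 CPM, and 0 of 6 erythroid markers were in either. The 4 lymphoid markers in the knockdown table summed to 12.1 to 12.7 CPM in shCtrl and 4.69 to 5.69 CPM in shRBPMS. RBPMS stood at 20.4, 7.24 and 7.39 CPM in shCtrl replicates 1 to 3 and at 2.53, 3.34 and 3.08 CPM in shRBPMS, so the groups did not overlap. Its log2 change was -1.96 (SE 0.45, adjusted p = 0.0846, edgeR with group alone) and -1.79 (SE 0.35, adjusted p = 0.0106) with the replicate number as a block. The submitters' names put replicate 1 of both knockdown groups in a first series and replicates 2 and 3 in a second, called label set 1 and label set 2 below. Mitochondrial genes took 13.2% and 15.2% of counts in the set 1 libraries and 6.20% to 6.95% in those of set 2. In each set 2 group the libraries differed from each other far less (chi-square per degree of freedom 3.01 and 3.03) than from replicate 1 (133 to 215). The DMSO pair (2.24) and the RB98# pair (4.90) also differed little, so p-values with RB98# rest on a small spread between libraries.

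The mevalonate branch builds isoprenoid units from acetyl-CoA, and the later enzymes join them to squalene and close and trim the ring to cholesterol. The SREBPs are membrane-bound transcription factors. When sterols are scarce, SCAP carries them from the endoplasmic reticulum to the Golgi, where proteases release the active part. The INSIG proteins hold SCAP back when sterols are plentiful, and INSIG1 is itself an SREBP target. SREBP2 mainly drives sterol genes and SREBP1 mainly fatty acid genes, usually beside the factor NF-Y. LXRs are activated by oxysterols and raise genes of sterol export and of lipoprotein receptor turnover.

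The stretches upstream of 4 members on which the results turn are shown because these genes had the largest responses to RB98# (INSIG1, MSMO1 and HMGCS1) or encode the factor itself (SREBF2). Each is the 250 bases before a transcription start in RefSeq (GRCh38.p14), 5′ to 3′ on the gene's strand. They lie at chr5:43313413-43313662 (minus strand, the upstream of 2 listed HMGCS1 starts), chr7:155297628-155297877 (INSIG1, plus), chr4:165327419-165327668 (MSMO1, plus) and chr22:41832855-41833104 (SREBF2, plus). Capitals mark CCAAT, the core of the NF-Y motif, on either strand (ATTGG on the other), and TCACNCCAC, a form of the sterol response element.
HMGCS1: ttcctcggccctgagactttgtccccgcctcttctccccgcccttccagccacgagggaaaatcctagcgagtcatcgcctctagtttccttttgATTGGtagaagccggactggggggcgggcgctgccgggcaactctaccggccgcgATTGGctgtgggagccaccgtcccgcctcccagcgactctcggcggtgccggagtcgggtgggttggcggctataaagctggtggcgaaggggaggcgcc
INSIG1: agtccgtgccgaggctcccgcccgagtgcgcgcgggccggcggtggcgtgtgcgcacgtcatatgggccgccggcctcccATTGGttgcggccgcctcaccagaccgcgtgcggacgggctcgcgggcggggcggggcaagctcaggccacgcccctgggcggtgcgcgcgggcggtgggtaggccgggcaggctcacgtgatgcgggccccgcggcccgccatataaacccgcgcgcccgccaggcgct
MSMO1: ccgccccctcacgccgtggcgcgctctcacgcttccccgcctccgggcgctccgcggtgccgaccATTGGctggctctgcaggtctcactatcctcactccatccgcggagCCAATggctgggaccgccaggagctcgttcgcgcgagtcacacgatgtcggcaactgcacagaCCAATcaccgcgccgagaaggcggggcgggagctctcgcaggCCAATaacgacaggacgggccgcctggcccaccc
SREBF2: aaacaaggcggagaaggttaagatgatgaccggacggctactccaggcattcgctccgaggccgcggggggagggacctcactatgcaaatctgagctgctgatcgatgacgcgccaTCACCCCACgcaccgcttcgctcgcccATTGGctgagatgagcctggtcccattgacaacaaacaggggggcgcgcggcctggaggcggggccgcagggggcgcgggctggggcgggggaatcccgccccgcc
CCAAT occurs in all 4, and TCACNCCAC only in the SREBF2 stretch among them. Promoter windows of 300 bases were found for 31 of the 36 members, and not for ACAT2, FDFT1, SQLE, FASN and ABCG1. CCAAT stood on either strand in 22 of the 31 (71%), against 39.7% of 27305 genes with a window. The 27305 were not restricted to coding or expressed genes, so they are not matched to the members. By role it stood in 5 of 6 mevalonate, 8 of 9 late sterol and 5 of 7 fatty acid genes. It also stood in 2 of 5 regulators (SREBF2 and INSIG1) and in 1 of 2 transport genes (STARD4). Of the 2 LXR targets with a window, MYLIP had it and ABCA1 did not. TCACNCCAC stood in 1 of 31 members (3.23%), against 1.39% of genes. Both strands were searched, the SREBF2 matches do not overlap each other, and a match describes letters, not binding.

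Per kilobase of exon, SCD (a desaturase that makes monounsaturated fatty acids) had the highest level of the members in DMSO at 121 CPM per kb, followed by FASN (fatty acid synthase) at 102 and ACLY (ATP citrate lyase, which makes cytosolic acetyl-CoA) at 83.3. HMGCS1, the synthase at the entry to the mevalonate branch, was next at 70.0 CPM per kb. The other fatty acid genes ranked from the 6th (FADS2) to the 32nd (ACSS2) of 35 in DMSO. With RB98# the order of these levels was HMGCS1 at 191, then INSIG1 and SCD, both at 171, and FASN at 131 CPM per kb. In shCtrl the highest were FASN at 84.3, ACLY at 77.2 and SCD at 77.0, and HMGCS1 stood at 21.1 CPM per kb. The tables were counted and scaled apart, so the levels of the control groups are set side by side without a test.

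RB98# raised most of these genes. By edgeR's quasi-likelihood test at an adjusted p under 0.05, 28 of 35 members rose and 1 (ELOVL6) fell, against 37.8% of all 12324 genes tested (20.5% higher and 17.3% lower). These are bulk libraries, in which fewer cells of a kind and less RNA per cell cannot be told apart. The median log2 change over the 35 members was 0.43 and over all genes 6.5e-05. The median was 0.58 in the mevalonate branch (6 of 7 rose), 0.48 in the late sterol steps (10 of 11), 0.33 in fatty acid synthesis (6 of 8 rose, 1 fell), 0.36 in the regulators (4 of 5) and 1.07 in the 2 transport genes (2 of 2), while neither LXR target passed the test and their median was -0.41. Both treated libraries lay above both DMSO libraries for 30 members and below them for 3, against 34.3% and 34% of all genes. The members that did not pass were PMVK, TM7SF2, ACACA, INSIG2, ABCG1 and MYLIP. With library totals alone as the scaling, the median over all genes shifted by -0.1013 and the split over all genes turned from 2530 higher and 2129 lower to 1690 higher and 3276 lower, while among members 24 were higher and 3 lower.

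**Figure D1:**
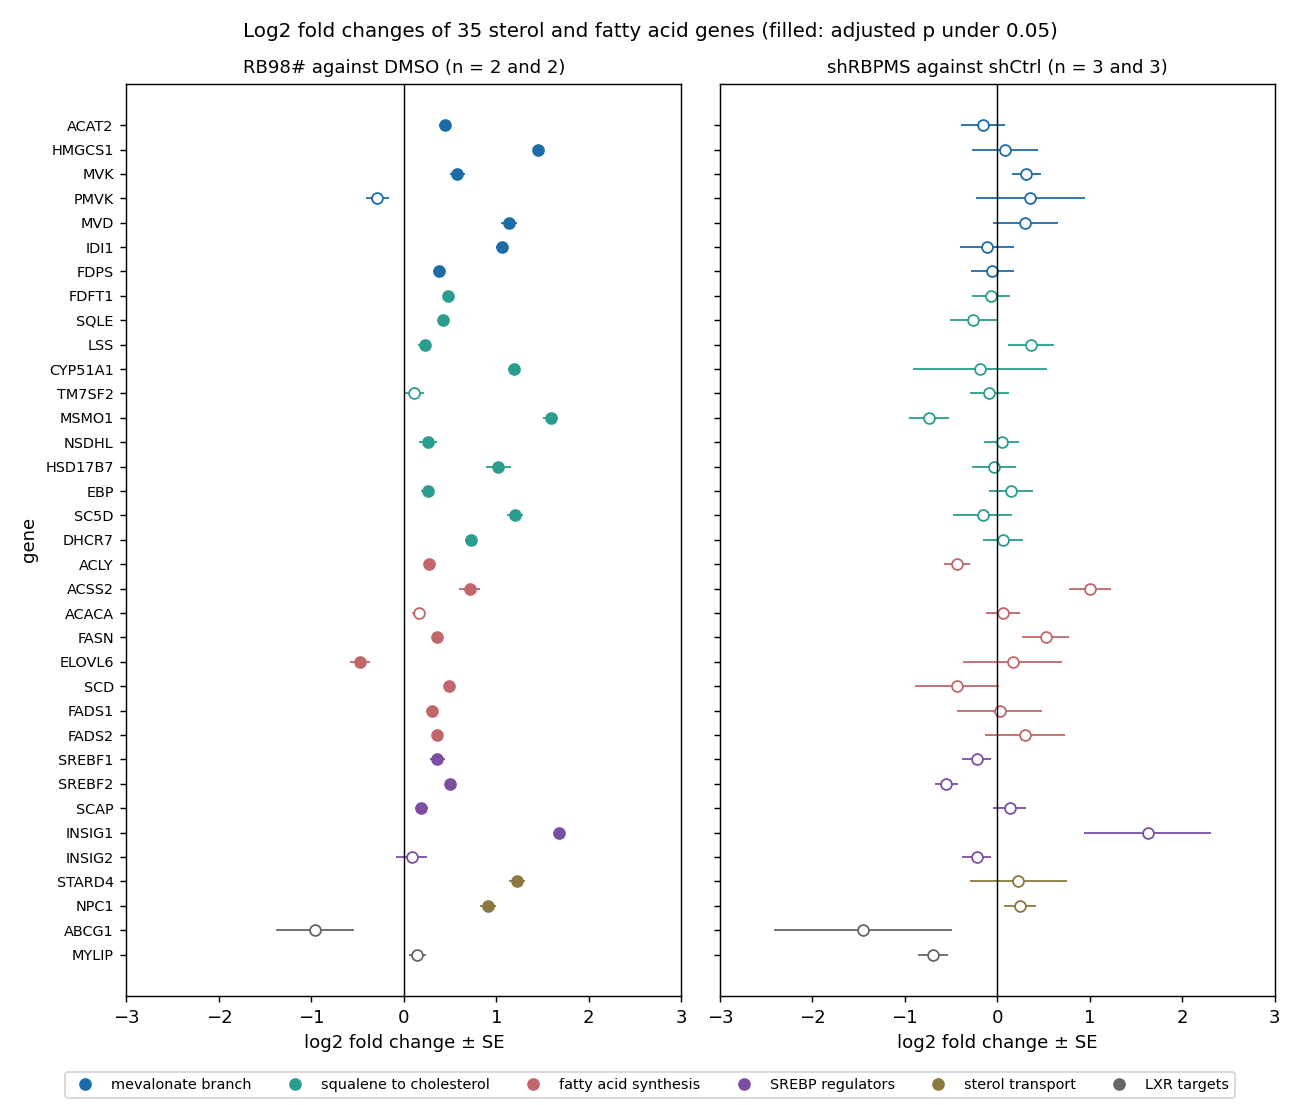
Log2 fold change with its standard error for the 35 members, RB98# against DMSO on the left (n = 2 and 2) and shRBPMS against shCtrl on the right (n = 3 and 3), with filled points for an adjusted p under 0.05 (edgeR, group alone) and colours for the 6 roles. On the left 29 points are filled and 28 of them lie above 0, and on the right none is filled.

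In the mevalonate branch, HMGCS1 had the largest change. It measured 332 and 326 CPM in DMSO and 929 and 871 CPM with RB98#, a rise of 1.45 on the log2 scale (SE 0.06, adjusted p = 2.51e-16), or 2.73-fold. MVD, which makes isopentenyl diphosphate, went from 46.1 and 45.2 to 90.99 and 109.6 CPM (log2 1.14, SE 0.09, adjusted p = 2.14e-10). IDI1, which isomerises that product, went from 186 and 176 to 397 and 358 CPM (log2 1.06, SE 0.06, adjusted p = 1.46e-12). The treated libraries of these 3 genes lay far above the controls, by more than the distance between the libraries of either group. Smaller rises were measured for the remaining called genes of the branch. The kinase MVK had 46.6 and 46.3 CPM in DMSO and 69.9 and 68.5 CPM with RB98# (log2 0.58, adjusted p = 5.01e-06). ACAT2, the thiolase that joins acetyl-CoA units, had 99.4 and 92.8 against 129 and 132 CPM (log2 0.44, adjusted p = 1.32e-05), and FDPS, the farnesyl diphosphate synthase, had 168 and 166 against 206 and 229.9 CPM (log2 0.38, adjusted p = 4.64e-05). The kinase PMVK was the exception. Its 25.6 and 21.4 CPM in DMSO and 17.5 and 21.1 CPM with RB98# gave a log2 change of -0.29 (SE 0.13, adjusted p = 0.0748), with both treated libraries below both controls. PMVK passed the test, as lower, without RB98 replicate 2 (log2 -0.43, adjusted p = 0.0123) and with library totals alone (-0.39, adjusted p = 0.0187).

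In the late sterol steps, the largest change was that of MSMO1, a methylsterol oxidase. It measured 39.7 and 40.2 CPM in DMSO and 128 and 112 CPM with RB98# (log2 1.59, SE 0.08, adjusted p = 1.38e-13, 3.004-fold). SC5D, a sterol desaturase, went from 38.5 and 44.5 to 98.98 and 91.6 CPM (log2 1.20, SE 0.09, adjusted p = 5.05e-11). CYP51A1, the lanosterol demethylase, went from 114 and 117 to 277 and 251 CPM (log2 1.19, SE 0.07, adjusted p = 3.45e-13). These genes act on neighbouring or nearby intermediates between lanosterol and cholesterol, and their groups were well apart. HSD17B7, a ketosteroid reductase of the same stretch, had 11.8 and 12.1 against 21.8 and 26.95 CPM (log2 1.02, SE 0.13, adjusted p = 1.44e-06). DHCR7, the reductase of the last step on its branch, had 245 and 232 against 383 and 403 CPM (log2 0.72, SE 0.06, adjusted p = 6.18e-10). The enzymes that make and oxidise squalene rose less. FDFT1, the squalene synthase, had 356 and 345 against 481 and 493 CPM (log2 0.48, adjusted p = 2.82e-07), and SQLE, the squalene epoxidase, had 237 and 238 against 326 and 313 CPM (log2 0.43, adjusted p = 2.46e-06).

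The smallest rises of the late steps were those of LSS, NSDHL and EBP. LSS, which closes the sterol ring, had 156 and 146 against 165 and 187 CPM (log2 0.22, adjusted p = 0.012). NSDHL, a sterol dehydrogenase, had 36.05 and 34.8 against 39.5 and 45.5 CPM (log2 0.26, adjusted p = 0.0349), and EBP, a sterol isomerase, had 104 and 98.7 against 118 and 125 CPM (log2 0.26, adjusted p = 0.0041). The 3 calls depended on single libraries and on the scaling, and that of NSDHL also on the test. By DESeq2 the adjusted p of NSDHL was 0.132. In the authors' deposited DESeq2 results for RB98# it was 0.193, while LSS (0.0389) and EBP (0.0204) passed there. The adjusted p of LSS was 0.0585 without DMSO replicate 1, 0.261 without DMSO replicate 2, 0.0656 without RB98 replicate 2 and 0.164 with library totals alone, and for NSDHL the same settings gave 0.14, 0.239, 0.182 and 0.195. EBP had 0.164 without DMSO replicate 2 and 0.0681 with library totals alone. TM7SF2, a sterol reductase, had 37.96 and 31.7 against 39.1 and 36.1 CPM and did not pass (log2 0.11, SE 0.10, adjusted p = 0.405).

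The fatty acid genes changed less than the sterol genes at their largest. ACSS2, which makes acetyl-CoA from acetate, had 17.3 and 16.6 CPM in DMSO and 29.4 and 26.1 CPM with RB98# (log2 0.71, SE 0.12, adjusted p = 3.04e-05). SCD had 665 and 637 against 938 and 892 CPM (log2 0.49, SE 0.05, adjusted p = 1.05e-07). FASN had 989 and 929.7 against 1156 and 1301 CPM (log2 0.36, SE 0.06, adjusted p = 2.9e-05). Both desaturases of polyunsaturated fatty acids, FADS1 and FADS2, rose by a similar step. FADS1 had 124 and 125 against 159 and 148 CPM (log2 0.31, adjusted p = 0.000602) and FADS2 had 701 and 662 against 830.5 and 916 CPM (log2 0.36, adjusted p = 2.37e-05). ACLY had 446 and 423 against 515 and 538 CPM (log2 0.28, adjusted p = 0.000338), a call that was lost without DMSO replicate 2 (adjusted p = 0.0767). ELOVL6, which lengthens palmitate, was the gene that fell. It had 29.3 and 26.5 CPM in DMSO and 20.001 and 20.2 CPM with RB98# (log2 -0.47, SE 0.11, adjusted p = 0.0015), with an adjusted p of 0.0601 without DMSO replicate 1. ACACA, the carboxylase that commits acetyl-CoA to fatty acids, had 203 and 184 against 204 and 228 CPM and did not pass (log2 0.16, adjusted p = 0.0641), though it did without RB98 replicate 1 (log2 0.22, adjusted p = 0.00193).

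Among the regulators INSIG1 had the largest rise of all 35 members. It had 189 and 201 CPM in DMSO and 655 and 592 CPM with RB98# (log2 1.68, SE 0.06, adjusted p = 1.3e-16, 3.199-fold). Its paralogue INSIG2 had 9.35 and 9.16 against 10.9 and 8.66 CPM, with overlapping groups (log2 0.09, adjusted p = 0.722). SREBF2, which encodes SREBP2, had 330.2 and 321 against 451 and 470.0 CPM (log2 0.50, SE 0.06, adjusted p = 1.52e-07). The promoter stretch of SREBF2 shown above holds both motifs, and that of INSIG1 holds CCAAT alone. SREBF1, which encodes SREBP1, had 62.5 and 68.9 against 81.2 and 87.9 CPM (log2 0.36, adjusted p = 0.000773), with 0.0623 without DMSO replicate 1. SCAP had 166 and 166 against 178 and 201 CPM (log2 0.19, adjusted p = 0.0245). This small rise lost its call by DESeq2 (adjusted p = 0.0656), by edgeR with the replicate block (0.0515) and with library totals alone (0.294). It did not pass in the authors' deposited DESeq2 results either (0.0666). The call was also lost without DMSO replicate 1 (log2 0.19), DMSO replicate 2 (0.19) or RB98 replicate 2 (0.10). The treated libraries of SREBF1 and SREBF2 lay above both controls.

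Both sterol carriers rose. STARD4, which moves cholesterol through the cytosol, had 47.5 and 50.9 against 126 and 104 CPM (log2 1.22, SE 0.09, adjusted p = 3.76e-11). NPC1, which releases cholesterol from lysosomes, had 35.3 and 33.9 against 65.8 and 64.4 CPM (log2 0.91, SE 0.09, adjusted p = 9.69e-09). The LXR targets did not pass. ABCG1, a sterol exporter, was near the limit of detection with 23 and 35 counts in DMSO and 11 and 16 with RB98#, or 1.57 and 2.196 against 0.751 and 1.19 CPM (log2 -0.96, SE 0.42, adjusted p = 0.074). It passed, as lower, without RB98 replicate 2 (adjusted p = 0.0483) and with library totals alone (0.0481). MYLIP, a ubiquitin ligase of lipoprotein receptors, had 42.1 and 49.3 against 51.1 and 50.03 CPM (log2 0.15, adjusted p = 0.22).

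**Figure D2:**
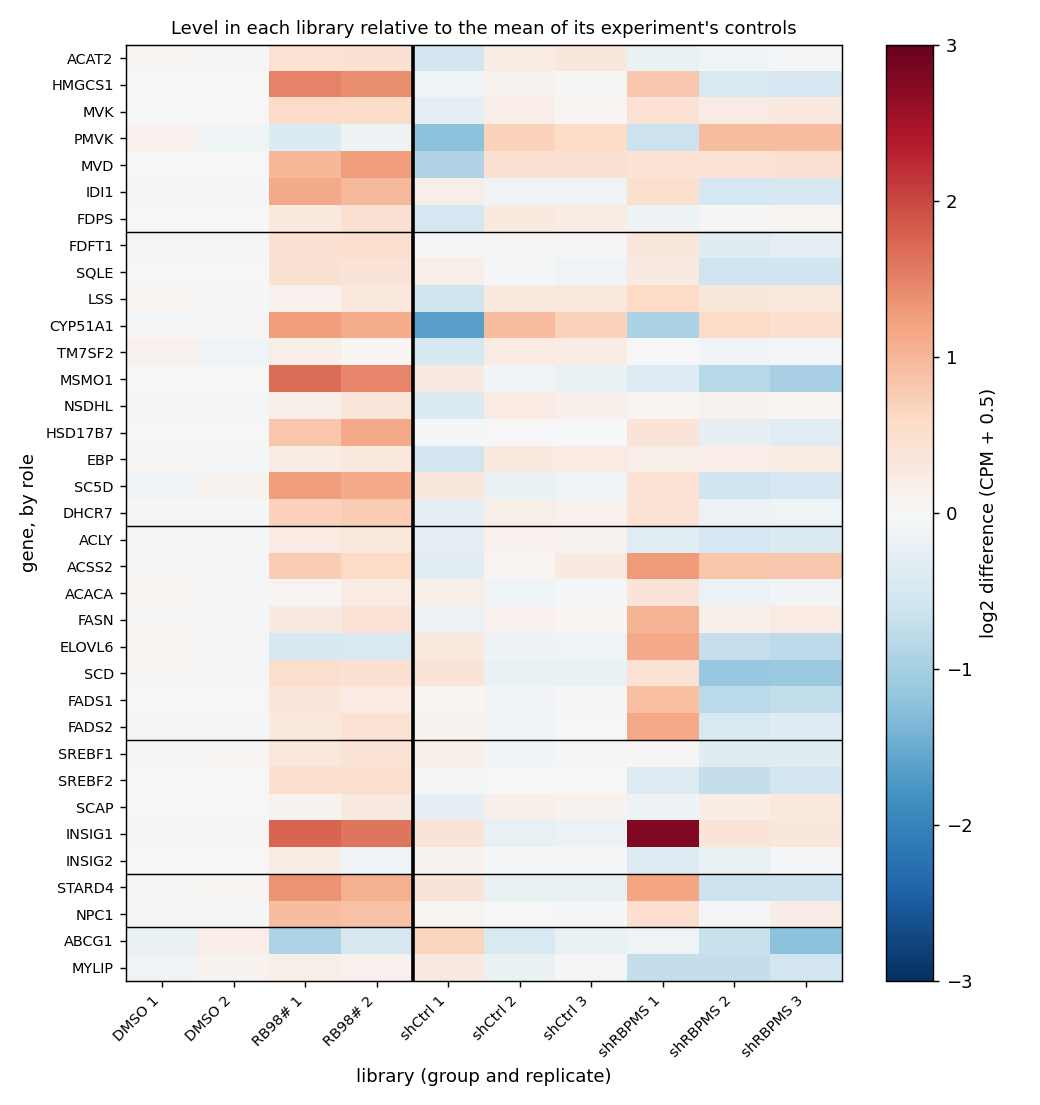
Heat map of log2(CPM + 0.5) of each member in each of the 10 libraries, relative to the mean of the controls of the same experiment, with members in rows by role. The RB98# columns are above their controls for most members, shRBPMS replicate 1 is farthest above for INSIG1, and shRBPMS replicates 2 and 3 are below for MSMO1, SCD and SREBF2.

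The knockdown libraries gave no such shift with group alone. With replicate 1 included, libraries within a group differed far more here than in the compound experiment, so counts of calls are not comparable between them. Of 35 members 0 passed edgeR's test, against 1.97% of 16215 genes (0.629% higher and 1.34% lower). At an unadjusted p under 0.05 there were 5 members and 2733 genes, and limma-voom called 0 members and 300 genes. DESeq2 called 4 members (ACSS2 as higher, and MSMO1, SREBF2 and MYLIP as lower), against 3.21% of all genes higher and 5.09% lower. The median log2 change was 0.03 over members and 0.02 over all genes. All 3 shRBPMS libraries lay above all shCtrl libraries for MVK, LSS, ACSS2 and FASN, and below them for MSMO1, ACLY, SREBF2, INSIG2 and MYLIP, which is 4 and 5 of 35, against 12.3% and 13.6% of all genes. Same-numbered libraries deviated together in this experiment, as did replicates 2 and 3 across numbers, so the replicate number was also taken as a block. With the block, 3 members rose (PMVK, ACSS2 and INSIG1) and 6 fell (MSMO1, ACLY, SCD, SREBF1, SREBF2 and MYLIP), against 28.1% of all genes (13.3% higher and 14.8% lower), a share of members no larger than that of all genes. With replicates 2 and 3 of each group summed to 1 library and the label set as a covariate, 8 members and 2681 genes passed. The members were PMVK, ACSS2, INSIG1 and FASN as higher, and MSMO1, SREBF2, MYLIP and ABCG1 as lower. Over all genes 7.73% were called higher and 8.62% lower. The calls of ACLY (log2 -0.34, adjusted p = 0.123), SCD (-0.44, adjusted p = 0.128) and SREBF1 (-0.20, adjusted p = 0.288) were lost in that fit.

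ACSS2 and INSIG1 were the members with the largest rises in that blocked fit. ACSS2 had 7.98, 10.5 and 12.4 CPM in shCtrl replicates 1 to 3 and 25.5, 18.5 and 18.1 CPM in shRBPMS, without overlap. Its log2 change was 1.01 (SE 0.23, adjusted p = 0.0814) with group alone and 0.99 (SE 0.20, adjusted p = 0.012) with the block. INSIG1 had 138, 89.9 and 91.8 CPM in shCtrl and 718, 136 and 133 CPM in shRBPMS. Replicate 1 of shRBPMS stood apart at more than 5-fold its own control, while replicates 2 and 3 were above their controls and below shCtrl replicate 1. The log2 change of INSIG1 was 1.63 (SE 0.69, adjusted p = 0.297) with group alone and 1.16 (SE 0.34, adjusted p = 0.043) with the block. PMVK had 11.4, 44.9 and 40.6 CPM in shCtrl and 17.4, 53.8 and 52.9 CPM in shRBPMS, where label sets differ more than groups (blocked log2 0.40, SE 0.09, adjusted p = 0.0151, and 0.858 with group alone).

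Of the members that fell with the block, MSMO1 had 45.6, 35.8 and 32.8 CPM in shCtrl and 28.6, 20.97 and 18.8 CPM in shRBPMS. The groups did not overlap, and the log2 change was -0.74 (SE 0.21, adjusted p = 0.139) with group alone and -0.75 (SE 0.07, adjusted p = 0.000986) with the block. SREBF2 had 354, 365 and 365 CPM in shCtrl and 276, 219.8 and 243 CPM in shRBPMS (group alone -0.55, adjusted p = 0.0836, and blocked -0.56, SE 0.08, adjusted p = 0.0035). MYLIP had 79.4, 56.7 and 62.3 CPM in shCtrl and 39.7, 39.4 and 43.5 CPM in shRBPMS (group alone -0.69, adjusted p = 0.0857, and blocked -0.68, SE 0.11, adjusted p = 0.00489). In all 3 genes every shRBPMS library lay under every shCtrl library. ACLY had 336, 439.7 and 432 CPM in shCtrl and 318, 281 and 294 CPM in shRBPMS (group alone adjusted p = 0.189, blocked log2 -0.43, SE 0.11, adjusted p = 0.0264). SCD had 532, 352 and 354 CPM in shCtrl and 546, 185 and 187 CPM in shRBPMS (group alone adjusted p = 0.735, blocked log2 -0.61, SE 0.18, adjusted p = 0.046), and SREBF1 had 115, 97.3 and 99.3 CPM against 106, 79.8 and 80.8 CPM (group alone adjusted p = 0.568, blocked log2 -0.23, SE 0.07, adjusted p = 0.0385). The calls of ACLY, SCD and SREBF1 were those lost with replicates 2 and 3 summed. For SCD the lower values were in replicates 2 and 3, and replicate 1 was at 532 and 546 CPM. In the authors' deposited table of the knockdown, the adjusted p was 0.00122 for MSMO1 (log2 -0.76), 0.00212 for ACSS2 (0.86) and 0.000563 for SCD (-0.71). It was 0.0123 for SREBF2 (-0.58), 0.0393 for INSIG1 (0.94) and 0.0137 for MYLIP (-0.62). ACLY (0.0611), PMVK (0.243) and SREBF1 (0.374) did not pass there. For SCD and INSIG1, DESeq2 with group alone gave -0.44 and 1.62, away from the deposited changes, and for MSMO1 a close -0.74. The model behind the deposited values is not given here.

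The other members of the knockdown table did not pass with group alone or with the block. NPC1, with the larger change of the 2 transport genes, had 33.3, 31.1 and 30.4 CPM in shCtrl and 45.01, 30.4 and 36.9 CPM in shRBPMS (log2 0.24, SE 0.17, adjusted p = 0.563). ABCG1 had 31, 10 and 18 counts in shCtrl and 14, 7 and 0 in shRBPMS, where a count of 0 allows up to 0.107 CPM (counting error only), so this table gives it little weight. In the control groups, CYP51A1 was counted at a far lower level in the knockdown table (1.65, 12.4 and 10.3 CPM in shCtrl) than in the compound table, and its knockdown change had an SE of 0.73.

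The 2 label sets went in opposite directions for much of the pathway. As log2(CPM + 0.5) of shRBPMS less that of shCtrl, the set 1 ratio (1 library each) was above 0 in 28 of 35 members (80%, against 53.1% of all genes), and the set 2 ratio (2 libraries each) was below 0 in 27 (77.1%, against 49.2%). Both held for 20 members (57.1%, against 14.1% of all genes). The medians over members were 0.43 in set 1 and -0.30 in set 2, and over all genes 0.04 and 0.01. Of the late sterol genes 9 of 11 were above 0 in set 1 and below 0 in set 2, and of the fatty acid genes 5 of 8, but of the regulators 0 of 5. HMGCS1 shows the pattern, with 89.9, 106 and 101 CPM in shCtrl replicates 1 to 3 and 173, 71.9 and 69.7 CPM in shRBPMS, ratios of 0.94 in set 1 and -0.55 in set 2. FADS1 likewise had 109, 100.3 and 108 CPM in shCtrl and 199, 60.5 and 63.5 CPM in shRBPMS, with ratios of 0.86 and -0.74.

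Members with a set 1 ratio above 1 were INSIG1 (2.38), ACSS2 (1.62), MVD (1.31), FASN (1.21), LSS (1.19) and FADS2 (1.04), 6 of 35 against 4.11% of all genes. The library that stood apart was not the same in each. MVD had 16.5, 43.5 and 43.4 CPM in shCtrl replicates 1 to 3 and 41.8, 42.3 and 43.6 CPM in shRBPMS, so that shCtrl replicate 1 was the low library. LSS, with 67.97, 126 and 128 CPM in shCtrl and 155, 131 and 128 CPM in shRBPMS, also had its low library there. FADS2, with 429, 376 and 399.7 CPM in shCtrl and 885, 292 and 307 CPM in shRBPMS, had a high library in shRBPMS replicate 1, as INSIG1 did. MSMO1, ACLY, SREBF1, SREBF2, INSIG2, ABCG1 and MYLIP were below 0 in both sets, and 8 members were above 0 in both. Set 1 has 1 library per group, so the difference between the sets was not tested. In set 2 alone, edgeR called 5 members higher (PMVK, ACSS2, FASN, SCAP and INSIG1) and 22 lower, against 42.2% of all genes (20.5% higher and 21.7% lower). That fit compares libraries that differ little from each other within a group, as does the RB98# fit. The share of mitochondrial counts moved with the label sets, and so did the ratio of RBPMS itself (-2.79 in set 1 and -1.08 in set 2). The part of either in the ratios of the members was not tested.

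**Figure D3:**
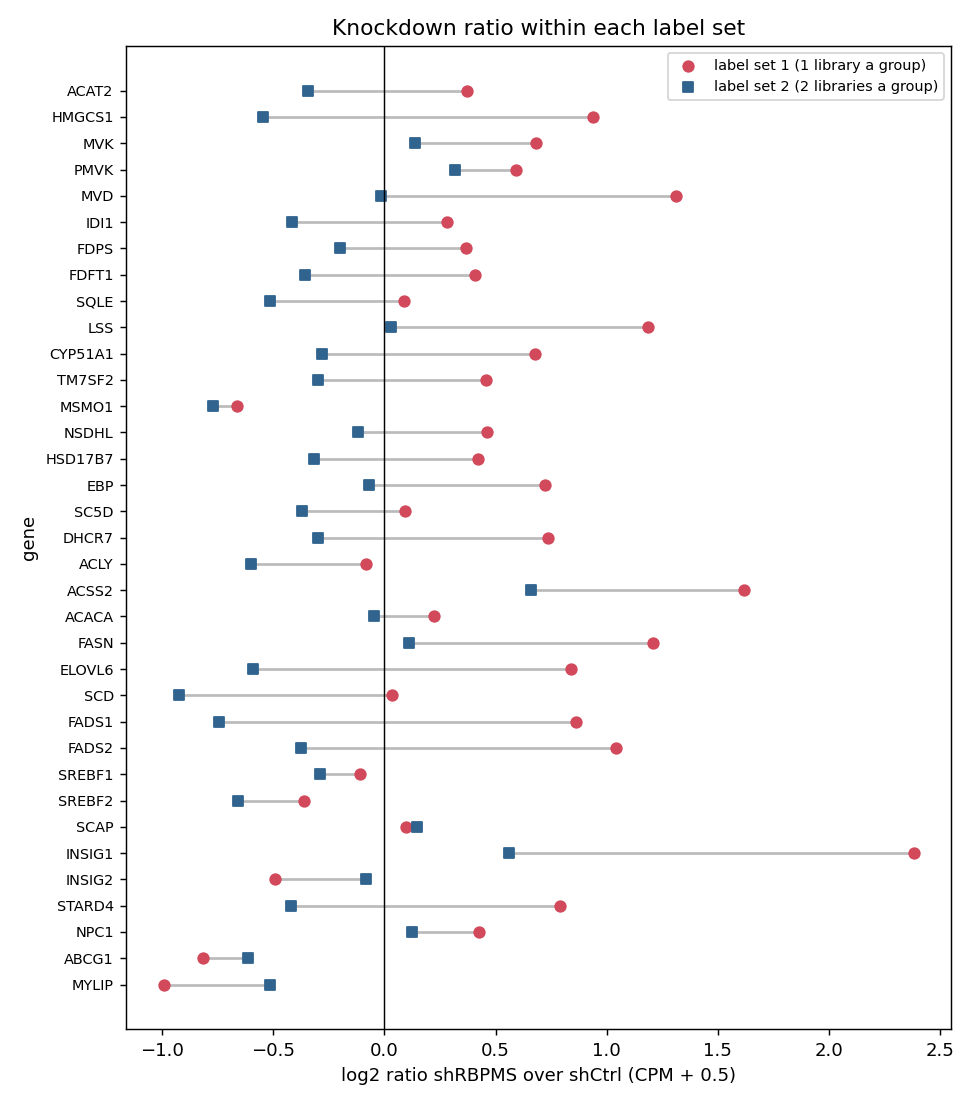
Log2 ratio of shRBPMS to shCtrl for each member in label set 1 (1 library per group) and label set 2 (mean of 2 libraries per group), from log2(CPM + 0.5). The set 1 points lie above 0 for 28 of 35 members and the set 2 points below 0 for 27.

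The difference between the experiments, the RB98# change less the shRBPMS change, was tested in 1 fit over all 10 libraries and 12126 shared genes. It was above 0 and passed for 2 of 35 members, MSMO1 and SREBF2, against 8.15% of all genes (4.79% higher and 3.36% lower). Both genes rose with RB98#, and in all 3 shRBPMS libraries they lay below the shCtrl libraries. The difference was 2.31 for MSMO1 (SE 0.28, adjusted p = 0.00505) and 1.04 for SREBF2 (SE 0.15, adjusted p = 0.00788). The SREBF2 call was lost without DMSO replicate 1 (adjusted p = 0.0569) or DMSO replicate 2 (0.0648). At an unadjusted p under 0.05 there were 11 members and 2869 of the 12126 genes, and DESeq2 called 7 members and 1796 genes. With the replicate block 17 members passed, 16 above 0 and PMVK below, against 37.1% of all genes (18.9% higher and 18.2% lower). HMGCS1 (1.49, adjusted p = 0.0108), IDI1 (1.23, adjusted p = 0.00117) and SCD (1.08, adjusted p = 0.00737) were among the 17. This block takes replicates 2 and 3 of the knockdown as separate pairs, and it pairs DMSO and RB98# libraries whose numbers did not pair. A fit with replicates 2 and 3 summed was not run for the difference. In the knockdown alone, SCD lost its call in such a fit. Leaving out shRBPMS replicate 1 alone also gave 17 members, with 1226 genes in all, and leaving out shCtrl replicate 1 gave 7, with 1541 genes. For INSIG1 the difference was 0.05 (SE 0.92, adjusted p = 0.986) over all libraries and 1.317 (SE 0.28, adjusted p = 0.028) without shRBPMS replicate 1. The experiments differ in agent, handling and table, and these cannot be told apart.

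**Figure D4:**
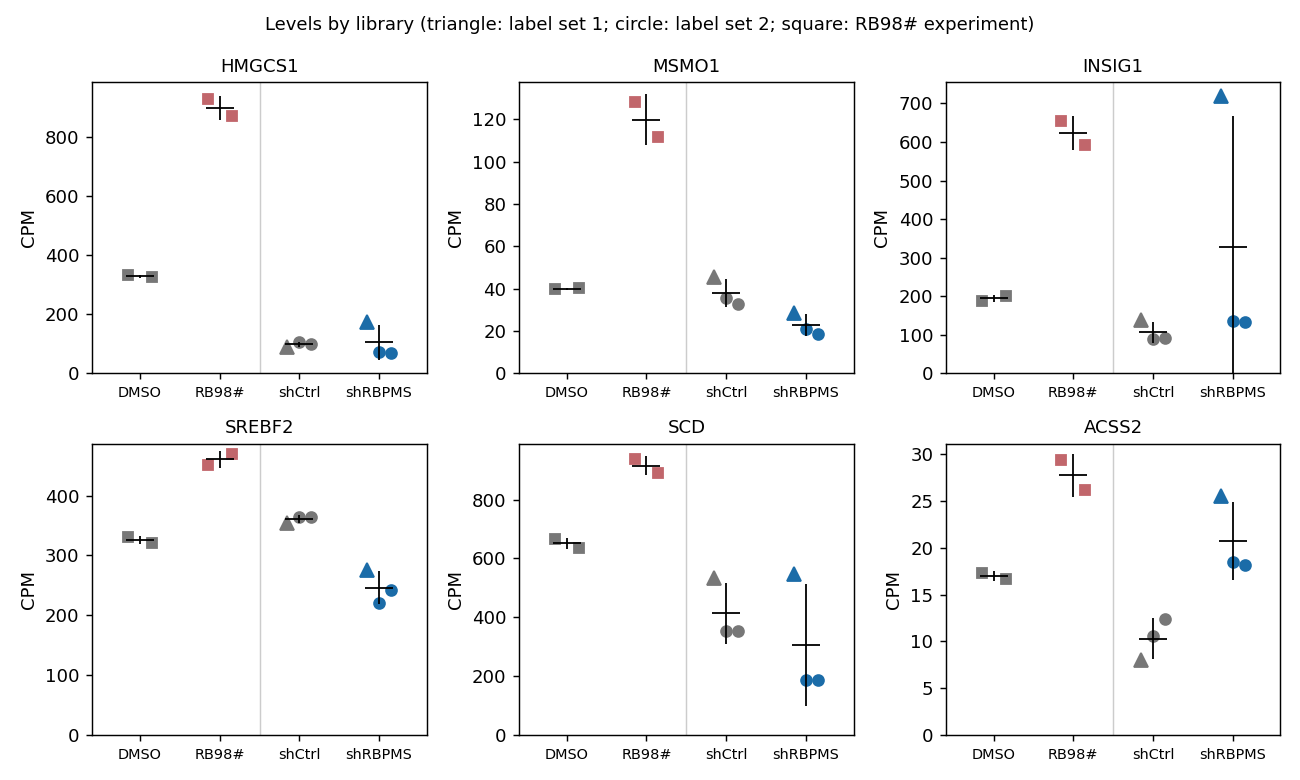
Level in CPM in each library for HMGCS1, MSMO1, INSIG1, SREBF2, SCD and ACSS2, with points for libraries and bars for the group mean with its SD (n = 3 in shCtrl and shRBPMS, n = 2 in DMSO and RB98#). The RB98# points lie above the DMSO points in all 6 genes, and shRBPMS replicate 1 stands apart for INSIG1 at 718 CPM.

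Other genes of lipid metabolism, in 8 lists outside the 36, changed in both directions with RB98#, and their counts are to be read against the 37.8% of all genes called (20.5% higher and 17.3% lower). Of 15 measured genes of glycerolipid synthesis and lipid droplets, 6 rose and 2 fell. LPIN1, a phosphatidate phosphatase and a known SREBP target, went from 43.3 ± 0.0972 to 103.0 ± 1.95 CPM (mean ± SD, n = 2 each, log2 1.25, SE 0.08, adjusted p = 3.53e-12). PLIN2, a coat protein of lipid droplets, went from 61.5 ± 3.72 to 142 ± 1.94 CPM (log2 1.21, SE 0.07, adjusted p = 1.46e-12). Their differences from the knockdown also passed (1.25 for each, adjusted p = 0.0371 and 0.00507). DGAT2 (log2 -0.39, adjusted p = 0.0209) and GPAM (-0.28, adjusted p = 0.0347), acyltransferases of triglyceride synthesis, fell. Of 13 genes of fatty acid elongation and activation 6 rose and 1 fell, with the acyl-CoA synthetases ACSL1 (log2 0.52, adjusted p = 0.00482) and ACSL3 (0.49, adjusted p = 1.66e-05) rising and the dehydratase HACD3 (-0.31, adjusted p = 0.000276) falling. Of 14 genes of fatty acid oxidation 0 rose and 2 fell: the carnitine transferases CPT2 (log2 -0.32, adjusted p = 0.0191) and CPT1A (-0.23, adjusted p = 0.0095).

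Against the 37.8% of all genes called, the isoprenoid and SREBP processing lists had larger shares, and the other remaining lists had smaller ones. Of 10 genes of the isoprenoid branches 5 rose and 1 fell, with GGPS1 (geranylgeranyl diphosphate synthase, log2 0.55, adjusted p = 0.000212) and PDSS2 (0.50, adjusted p = 0.00192) rising and NUS1 (-0.18, adjusted p = 0.0349) falling. Of 11 genes that process SREBPs or control sterol enzymes in the endoplasmic reticulum 2 rose and 3 fell. SEC23A (log2 0.35, adjusted p = 0.000996) was among those that rose, and ERLIN2 (-0.35, adjusted p = 9.81e-05) among those that fell. Of 12 measured genes of sterol storage and transport 3 rose, among them OSBPL8 (log2 0.42, adjusted p = 9.8e-05) and NPC2 (0.30, adjusted p = 0.0462), and LRP8 fell (-0.24, adjusted p = 0.00947). Of 9 genes of acetyl-CoA and NADPH supply 3 rose, among them POR (log2 0.37, adjusted p = 0.00222), and 0 fell. Of 7 measured LXR receptors and targets, the receptor NR1H2 rose (log2 0.29, adjusted p = 0.0339) and its partner RXRA fell (-0.38, adjusted p = 0.00236).

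In the knockdown with group alone, where 1.97% of all genes passed, 2 genes of these lists passed, both lower. SEC23A, a coat protein of the vesicles that carry SCAP, went from 66.4 ± 9.59 to 37.996 ± 1.35 CPM (mean ± SD, n = 3 each, log2 -0.81, SE 0.14, adjusted p = 0.0471). LPIN2 went from 43.2 ± 3.53 to 22.5 ± 0.873 CPM (log2 -0.94, SE 0.13, adjusted p = 0.0278). Both calls were lost without shCtrl replicate 3, shRBPMS replicate 2 or shRBPMS replicate 3, where 0 genes passed. SEC23A thus rose with RB98# and fell with shRBPMS, and that difference passed (1.14, SE 0.19, adjusted p = 0.0114). With the block, 28.1% of all genes passed (13.3% higher and 14.8% lower). The isoprenoid and fatty acid oxidation lists had shares close to that. Larger shares were those of SREBP processing, glycerolipids and sterol storage, and no set test was run. The block takes replicates 2 and 3 as separate pairs, and values with them summed are not given for these lists. The genes of sterol storage and transport rose in 5 and fell in 1 of 12, with NCEH1, a cholesteryl ester hydrolase (log2 1.38, adjusted p = 0.000675), and LIPA, the lysosomal acid lipase (0.91, adjusted p = 0.00646), rising and OSBPL2 (-0.49, adjusted p = 0.00809) falling. The glycerolipid list rose in 7 of 15 and fell in 1, fatty acid oxidation rose in 4 of 14 and fell in 0, and acetyl-CoA and NADPH supply rose in 3 of 9 and fell in 0. SREBP processing rose in 3 of 11 and fell in 4, the LXR list rose in 2 of 8 and fell in 1, the isoprenoid list rose in 1 of 10 and fell in 2, and fatty acid elongation rose in 3 of 13 and fell in 2.

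Where gene models overlap, reads cannot be told apart, since the use of strand in counting is not given in the sources used here. The spans of 24 members overlap another gene in GENCODE 29 and those of 10 overlap a coding gene, FADS1 and FADS2 each other among them. Pseudogenes named after them exist for FDPS (8), CYP51A1 (3), HSD17B7 (2), SCD (1) and FADS2 (1), so their counts are uncertain to the extent that reads were shared.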

How the data were processed

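Counts per gene were deposited by the authors for 10 RNA-seq libraries of Kasumi-1, in 1 table per experiment. Tools listed in the submitters' processing notes, with no role or order, are featureCounts 2.0.1, HISAT2 2.2.1, DESeq2 1.32.0, fastp 0.22.0, deepTools 3.5.1, MACS2 2.2.6 and StringTie, on hg38. Per the file headers, the authors' tables also hold their own log2 fold changes with p-values, which are quoted where named, a test score, and scaled signal. The score and signal values deposited by the authors, 10 per-library columns among them (4 with no matched sample), were not used. The RIP and m6A samples were not analysed here. Of 12437 lines of the compound table, 112 repeated gene lines were dropped.

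Tests used edgeR 4.0.16 (R 4.3.3; quasi-likelihood F test, two-sided, TMM factors, filterByExpr with a minimum count of 10 and total of 15), fitted on each whole table with group alone, with Benjamini-Hochberg adjustment over all genes tested and a threshold of 0.05. CPM values use TMM-scaled library sizes. The steps were tested on simulated counts with the same spread for every gene and no label set effect. That test therefore does not cover the gap between the label sets. limma 3.58.1 and DESeq2 1.42.0, other scalings, no filter, the replicate block, the label set and each library left out were alternatives. Same-numbered knockdown libraries deviated together (correlations of deviations from the group means over 9513 genes 0.870, 0.804 and 0.828), so blocked values are given. Replicates 2 and 3 correlated as highly across numbers (0.808 and 0.802), so the numbers carry no pairing beyond the label set, and a fit on sums per label set is given beside the block. The DMSO and RB98# numbers did not pair (-0.0793). Library totals of 13854281 to 34375418 counts set the counting precision, and replicates limit it further with 2 or 3 per group.

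The members and lists were chosen with earlier results of these data known. Members past the threshold with group alone or the block are given in every library, and otherwise the member of a role with the largest change. Up to 2 genes per direction are named from each other list. Some genes that this rule selects are not reported here. Genes or settings singled out beyond this were chosen after their values were seen. Promoters are RefSeq windows of GRCh38.p14. Exon lengths and overlaps are from GENCODE 29. Figures were drawn with matplotlib 3.10.9.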

Additional observations from a re-analysis of the deposited data

Results flagged for a closer look

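MSMO1 and SREBF2 are listed because their changes differed between the experiments by a test of the difference itself (edgeR, 4 groups, 10 libraries). They were 2 of 35 members, against 8.15% of all genes that passed the same test (4.79% higher and 3.36% lower). For MSMO1 the RB98# change was 2.31 log2 units above the shRBPMS change (SE 0.28, adjusted p = 0.00505). For SREBF2 it was 1.04 log2 units above (SE 0.15, adjusted p = 0.00788), and this call was lost without DMSO replicate 1 or DMSO replicate 2. No explanation was tested.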

How the results depend on the processing

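With RB98#, 27 to 29 members passed in the settings that keep all libraries, against 29, and 24 to 30 when a library was left out, while the count over all genes ranged from 2731 to 5028 when a library was left out, against 4659. No called member changed its sign in any setting. In the knockdown, where group alone called 320 genes and 0 members, DESeq2 called 1346 genes and 4 members, the replicate block 4549 and 9, the label set as a covariate 5810 and 9, label set 2 alone 6830 and 27, and replicates 2 and 3 summed with the label set 2681 and 8. Leaving out a library gave 0 to 322 genes and 0 to 0 members. Without shRBPMS replicate 2, shRBPMS replicate 3 or shCtrl replicate 3 it gave 0 genes by edgeR, with 1866, 2002 and 2010 at an unadjusted p under 0.05. For the difference, with 988 genes and 2 members, DESeq2 called 1796 and 7, the replicate block 4497 and 17, and leaving out a library gave 92 to 1541 genes and 1 to 17 members. Library totals alone shifted the median over all genes of the difference by -0.115. The block changed the calls of the 9 knockdown members, of the 15 added in the difference, and of SCAP with RB98#, and of no other member. Where a left-out library leaves 1 in a group, that library is assumed to vary like the other groups. With 2 or 3 libraries per group, and label set 1 with 1 per group, small changes of members such as SCAP or NSDHL were at the limit of what these depths show, and the cause of the changed counts was not tested.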
